A study of Mus musculus with 12 samples.

Results

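The genes described here are those that make glucose from smaller precursors, or that run against that route or switch it on. They were *Pck1*, *Fbp1*, *Fbp2*, *G6pc* and *Slc37a4*, which encode enzymes and a transporter of gluconeogenesis, *Pklr*, which encodes the opposing enzyme of glycolysis, and *Ppargc1a* and *Creb3l3*, which encode a coactivator and a transcription factor of the fasting response. They were taken by gene symbol from a fixed list of 8 names, and all 8 were found among the 22252 entries of the liver and gonadal white adipose tissue (WAT) libraries and the 22273 entries of the gastrocnemius libraries. RNA-seq had been carried out on liver, gonadal WAT and gastrocnemius muscle of male C57BL/6J mice whose glucocorticoid receptor (GR) gene, *Nr3c1*, was floxed at exon 3. The GRf/f mice carried no Cre, and the GRmKO mice carried Cre under the skeletal actin promoter *Acta1*, which acts in myofibres, so that hepatocytes and adipocytes of both genotypes kept the receptor gene. From 8 weeks of age the mice drank for 4 weeks either vehicle, which was water with 1% ethanol, or 100 µg/mL of corticosterone (CORT), the glucocorticoid that rodents secrete, in that vehicle. RNA of 3 mice was pooled for each library, and each of the 12 groups had 1 library, so that no difference below has a replicate check and no p-value is given. The feeding state of the mice at collection, and whether liver, fat and muscle were taken from the same animals, were not given in the sources used here. The question asked of these genes was how far the hepatic response to CORT differed between mice with and without GR in muscle, with *Pck1* also followed in fat.

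Gluconeogenesis runs in the liver during fasting, when glucagon and glucocorticoids favour transcription of its genes and insulin opposes it. Cytosolic phosphoenolpyruvate carboxykinase, encoded by *Pck1*, commits oxaloacetate to the route, fructose-1,6-bisphosphatase acts in the middle, and glucose-6-phosphatase with its transporter releases free glucose at the end. Pyruvate kinase runs the other way at the bottom of glycolysis, and in liver its gene responds to glucose and insulin. In fat, the same *Pck1* enzyme supplies glycerol 3-phosphate for triglyceride, which is called glyceroneogenesis.

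The libraries held 19394572 to 20940660 counts, and levels are given as the share of the library total in CPM (counts per 1e6 counts). The lowest level such a library could show, set at 3 counts, was 0.143 to 0.155 CPM. Intervals in parentheses are 95% intervals of counting error only, and say nothing of the spread between mice or pools. A log2 change was computed after 0.5 CPM had been added to each level, and a gene was said to rise or fall where it changed at least 2-fold on that scale. Such changes were counted over genes with a count above 0 in each of a tissue's 4 libraries, 12485 in liver, 14218 in gonadal WAT and 13543 in gastrocnemius. The 4 comparisons of a tissue share its 4 libraries and are not independent. *Nr3c1*, the deleted gene, stood in gastrocnemius at 113 CPM in GRf/f vehicle, 90.4 in GRf/f CORT, 46.4 in GRmKO vehicle and 35.5 in GRmKO CORT, so it fell with deletion under vehicle, with a log2 change of -1.27, and under CORT, with one of -1.34. Transcripts that lack exon 3 can still be counted, which the level does not show. In liver its level was 45.2 to 60.8 CPM, and neither genotype comparison reached 2-fold. The 10 hepatocyte markers, among them *Alb* and *Ttr*, were all above the floor in the liver libraries and summed to 91082 and 121256 CPM in GRf/f vehicle and CORT and to 114420 and 152074 CPM in GRmKO vehicle and CORT. The 8 adipocyte markers, of which 3 to 6 were above the floor in a liver library, summed there to 3140 and 1306 CPM in GRf/f and to 2924 and 495 CPM in GRmKO, vehicle before CORT, with *Adipoq* at 0 in GRf/f vehicle. Leukocyte markers summed in liver to 87.0 and 68.7 CPM under vehicle and to 10.2 and 18.7 CPM under CORT, GRf/f before GRmKO, and the part of these 3 lists in the liver results was not tested. In whole tissue, fewer cells of a type and less RNA per cell cannot be told apart.

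The promoters of *Pck1*, *G6pc* and *Pklr* are shown because in liver *Pck1* fell with CORT in GRf/f mice while *G6pc* and *Pklr* rose in both genotypes. The stretches printed are RefSeq sequences of GRCm38.p6 on the plus strand, cut to end at the last base before the start of the deposited transcript. Capitals mark a cAMP response element in *Pck1* (TTACGTCA, its first base 93 bases before the RefSeq start, at -93), the core of an insulin response element in *G6pc* (TGTTTTG, at -174), and a pair of E boxes of the carbohydrate response element type in *Pklr* (CACGNG, at -170 on the plus strand and at -159 on the minus strand).
*Pck1*, chr2:173152823-173153047: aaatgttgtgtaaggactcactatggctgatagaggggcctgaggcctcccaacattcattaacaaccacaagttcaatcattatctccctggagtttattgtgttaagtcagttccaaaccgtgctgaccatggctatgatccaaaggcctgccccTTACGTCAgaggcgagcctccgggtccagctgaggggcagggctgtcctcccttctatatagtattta
*G6pc*, chr11:101367466-101367560: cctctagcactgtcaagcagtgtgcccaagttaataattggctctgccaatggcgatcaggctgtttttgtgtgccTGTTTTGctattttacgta
*Pklr*, chr3:89136373-89136571: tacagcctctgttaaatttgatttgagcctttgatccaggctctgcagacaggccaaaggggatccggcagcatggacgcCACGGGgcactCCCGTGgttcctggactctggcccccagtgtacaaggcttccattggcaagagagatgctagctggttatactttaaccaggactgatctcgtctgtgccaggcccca
All 8 members matched the RefSeq table, with 12 start sites among them, and the 250 bases before each start were searched on both strands. Of 32851 mouse promoters, 0.447% held TTACGTCA, 5.56% held TGTTTTG and 23.5% held CACGNG. The *Pck1* element contains the shorter core CGTCA, which 17.8% of promoters held and which was also present in windows of *Ppargc1a*, *Slc37a4*, *Creb3l3* and *Fbp2*. TGTTTTG was also matched on the minus strand in a *Creb3l3* window, at -148, and in the *Fbp2* window, at -189, and CACGNG once more in the *Fbp2* window, at -42. Neither the palindromic cAMP response element TGACGTCA, held by 1.55% of promoters, nor the forkhead core TGTTTAC, held by 3.17%, was matched in any member's window. The 15-base palindrome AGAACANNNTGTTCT of the glucocorticoid response element, held by 3 promoters in all, was not matched either, and its shorter arm AGAACA, held by 16.1%, was matched only for *Creb3l3*, at -231 and -30. A match is a string of letters, not an occupied site, and its part in the liver changes was not tested.

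With CORT the liver members split. In GRf/f mice 3 of the 7 members tested rose and 1 fell, where 5.9% of all tested genes rose and 5.72% fell, and the median log2 change was 0.68 over the members and 0.00 over all genes. In GRmKO mice 2 rose and 0 fell, where 2.8% and 2.82% of all genes did, with medians of 0.40 and 0.05. Between genotypes, 0 members changed 2-fold under vehicle in either direction, where 1.26% of genes were higher and 1.04% lower in GRmKO, and under CORT 1 was higher and 0 lower, where 2.44% and 2.27% were. The member not tested in liver was *Fbp2*, the muscle isoform of fructose-1,6-bisphosphatase, at 1.00, 1.00, 0 and 3.99 counts in GRf/f vehicle, GRf/f CORT, GRmKO vehicle and GRmKO CORT.

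**Figure D1:**
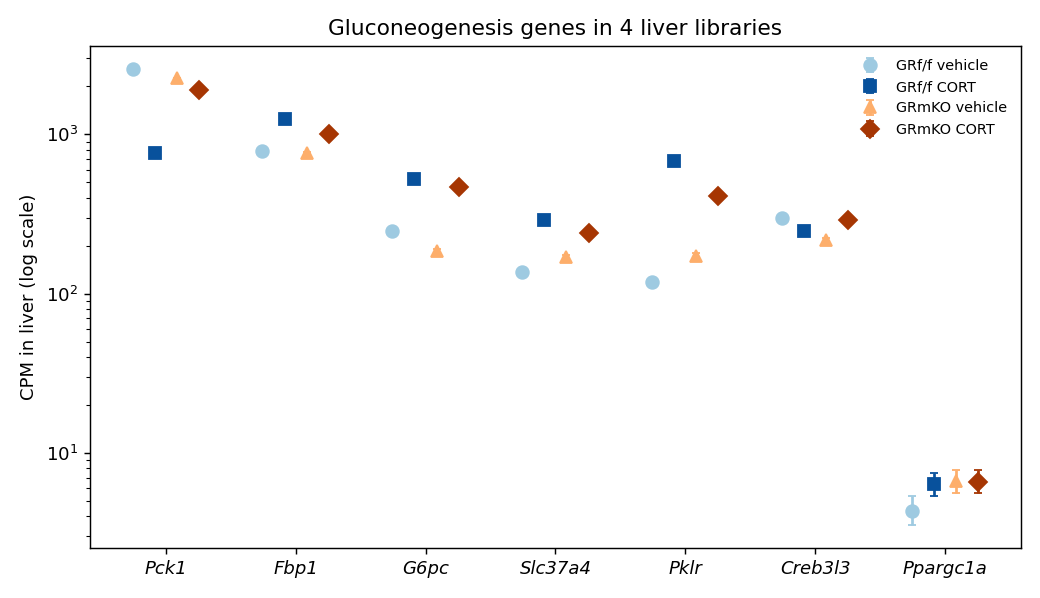
Levels of 7 gluconeogenesis genes in the 4 liver libraries, in CPM on a log axis, with 1 point per pooled library and bars for the 95% counting interval, which is mostly smaller than the point. *Pck1* in GRf/f CORT stands at 762 CPM, below the 1894 to 2563 CPM of the other 3 libraries, and *Pklr* and *G6pc* stand higher in both CORT libraries than in both vehicle libraries.

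*Pck1*, at the entry of the route, was the only member that fell in liver. The deposited transcript lies on chromosome 2 from 173153048 to 173159273 on the plus strand of GRCm38 and has 10 exons. Its liver level was 2563 CPM (2541 to 2584) in GRf/f vehicle, 762 (749.9 to 774) in GRf/f CORT, 2250.3 (2230.0 to 2271) in GRmKO vehicle and 1894 (1875 to 1913) in GRmKO CORT. The GRf/f CORT library alone was low, and no 2 of the 4 intervals overlapped. In GRf/f mice *Pck1* was 3.36-fold lower with CORT, a log2 change of -1.75 (-1.78 to -1.72). In GRmKO mice the level was 1.19-fold lower, with a log2 change of -0.25 (-0.27 to -0.23), short of 2-fold. The difference between these responses, GRmKO minus GRf/f, was 1.501 (1.47 to 1.53) on the log2 scale. The genotypes stood close under vehicle, at -0.19 (-0.21 to -0.17), and apart under CORT, where *Pck1* was 2.49-fold higher in GRmKO, at 1.31 (1.29 to 1.34). Ranked per base of transcript among all genes above 0 in its library, *Pck1* was at place 74 of 14405 in GRf/f vehicle, 204 of 14313 in GRf/f CORT, 90 of 14467 in GRmKO vehicle and 92 of 14432 in GRmKO CORT.

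*Fbp1*, the liver isoform of fructose-1,6-bisphosphatase, did not reach 2-fold in any liver comparison. It lies on chromosome 13 from 62864753 to 62888282 on the minus strand, with 7 exons. Its level was 783 CPM in GRf/f vehicle, 1257 in GRf/f CORT, 769 in GRmKO vehicle and 1001 in GRmKO CORT. Both CORT libraries were above both vehicle libraries, and the vehicle libraries overlapped in their intervals (772 to 795 and 757 to 781). The log2 change with CORT was 0.68 (0.65 to 0.71) in GRf/f and 0.38 (0.35 to 0.41) in GRmKO, a difference of -0.30 (-0.34 to -0.26). Its neighbour *Fbp2*, on the same chromosome from 62836877 to 62858422, was near 0 in liver, as given above.

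*G6pc*, the catalytic subunit of glucose-6-phosphatase, rose with CORT in both genotypes, opposite to *Pck1*. It lies on chromosome 11 from 101367561 to 101377903 on the plus strand, with 5 exons. Its level was 247 CPM (240.5 to 254) in GRf/f vehicle, 521.8 (512 to 532) in GRf/f CORT, 184 (179 to 190.2) in GRmKO vehicle and 470.0 (461 to 479) in GRmKO CORT. Each CORT library was above each vehicle library, and within a treatment the GRf/f library was the higher. The rise was 2.11-fold in GRf/f, with a log2 change of 1.08 (1.03 to 1.13), and 2.55-fold in GRmKO, with one of 1.35 (1.30 to 1.41). The difference of the responses, GRmKO minus GRf/f, was 0.27 (0.20 to 0.34), and the genotype difference was -0.42 (-0.48 to -0.36) under vehicle and -0.15 (-0.19 to -0.11) under CORT.

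*Slc37a4*, which carries glucose 6-phosphate to that enzyme inside the endoplasmic reticulum, rose with CORT in GRf/f and did not reach 2-fold in GRmKO. The transcript deposited for liver lies on chromosome 9 from 44398176 to 44402966 on the plus strand, with 8 exons. Its level was 136 CPM in GRf/f vehicle, 289 in GRf/f CORT, 169 in GRmKO vehicle and 239.7 in GRmKO CORT. Both CORT libraries were above both vehicle libraries, and the GRmKO pair lay between the GRf/f pair. The change was 2.13-fold in GRf/f, 1.09 (1.02 to 1.15) on the log2 scale, and 1.42-fold in GRmKO, 0.50 (0.44 to 0.57). The difference of the responses was -0.58 (-0.67 to -0.49), opposite in sign to that of *G6pc*, its partner in the same step.

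*Pklr*, the pyruvate kinase of liver and red cells, had the largest change of any member in liver. The transcript deposited for liver lies on chromosome 3 from 89136572 to 89146784 on the plus strand, with 11 exons. Its level was 118 CPM (114 to 123) in GRf/f vehicle, 683 (672 to 695) in GRf/f CORT, 173 (168 to 179) in GRmKO vehicle and 411 (402 to 419.7) in GRmKO CORT. As with *Slc37a4*, the GRmKO pair lay between the GRf/f pair, and no intervals overlapped. *Pklr* rose 5.77-fold in GRf/f, at 2.52 (2.47 to 2.59), and 2.37-fold in GRmKO, at 1.24 (1.19 to 1.30). The difference of the responses was -1.28 (-1.37 to -1.20). Under CORT the GRmKO level was 1.66-fold lower than in GRf/f, at -0.73 (-0.77 to -0.70), and under vehicle it was higher by 0.55 (0.47 to 0.62), neither of which reached 2-fold.

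**Figure D2:**
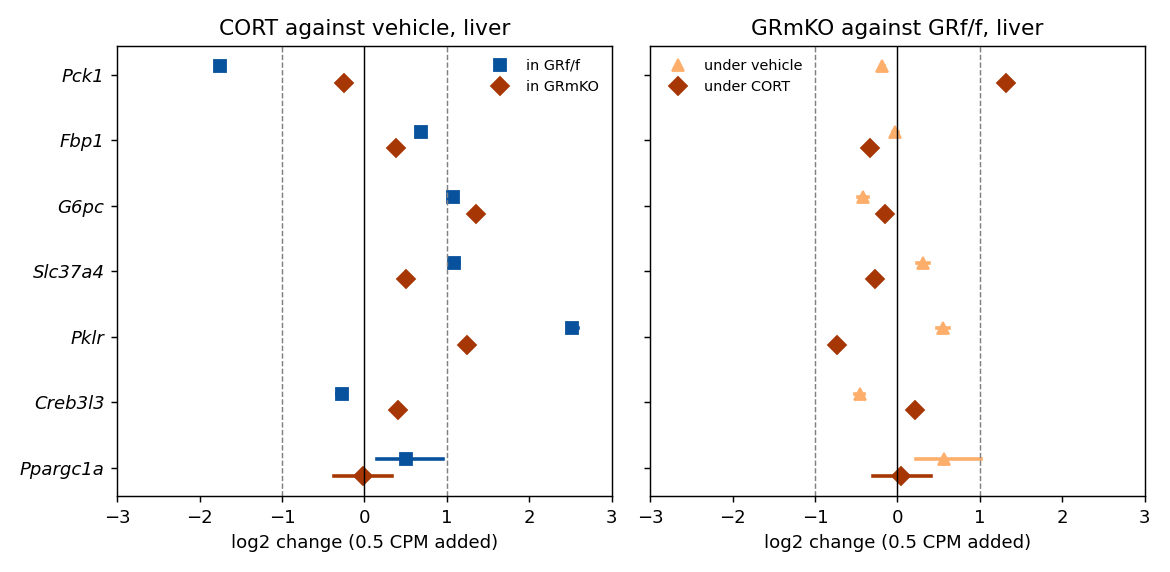
Log2 changes of 7 genes in liver, with CORT in each genotype on the left and between genotypes under each treatment on the right, each point from 1 pair of pooled libraries, lines for the 95% counting interval and dashed lines at 2-fold. *Pck1* lies at -1.75 in GRf/f and -0.25 in GRmKO, and *Pklr* at 2.52 and 1.24.

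The 2 regulators among the members did not reach 2-fold in any liver comparison. *Ppargc1a* encodes PGC-1alpha, a coactivator that drives gluconeogenic genes in fasted liver, and lies on chromosome 5 from 51454250 to 51553922 on the minus strand, with 13 exons. It was scarce in liver, at 4.34 CPM (3.54 to 5.33) in GRf/f vehicle, 6.35 (5.35 to 7.54) in GRf/f CORT, 6.65 (5.65 to 7.88) in GRmKO vehicle and 6.58 (5.58 to 7.80) in GRmKO CORT. The GRf/f vehicle library was the lowest, and the intervals of the other 3 overlapped one another. The log2 change with CORT was 0.50 (0.15 to 0.95) in GRf/f and -0.02 (-0.37 to 0.34) in GRmKO. *Creb3l3*, which encodes a membrane-bound transcription factor of hepatocytes, lies on chromosome 10 from 81084324 to 81098874 on the minus strand, with 12 exons. Its level was 299 CPM (292 to 307) in GRf/f vehicle, 248 (241 to 255) in GRf/f CORT, 218 (212 to 224) in GRmKO vehicle and 288 (281 to 296) in GRmKO CORT. The GRf/f vehicle and GRmKO CORT libraries were the high ones and their intervals overlapped. *Creb3l3* thus had opposite signs in the 2 genotypes, with log2 changes of -0.27 (-0.33 to -0.22) and 0.40 (0.35 to 0.46), both under 2-fold.

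Set against each other per base of transcript within a library, the members changed order. In GRf/f vehicle the level of *Pck1* was the highest of the 8, at 1303 on a scale where the levels of a library, corrected for transcript length, sum to 1e6, with *Fbp1* at 717, *Creb3l3* at 177, *G6pc* at 139, *Slc37a4* at 88.3, *Pklr* at 55.2 and *Ppargc1a* at 0.910. With CORT in GRf/f, *Fbp1* led at 1258, and *Pck1* at 424, *Pklr* at 349 and *G6pc* at 320.0 lay close together. In GRmKO CORT, *Pck1* at 1045 and *Fbp1* at 994 led, and *G6pc* followed at 286. A ratio of 2 genes in 1 library does not depend on how libraries are scaled. The ratio of *Pklr* to *Pck1* was 0.0424 (0.0407 to 0.0441) in GRf/f vehicle, 0.823 (0.804 to 0.842) in GRf/f CORT, 0.0706 (0.0683 to 0.0731) in GRmKO vehicle and 0.199 (0.194 to 0.204) in GRmKO CORT. That of *G6pc* to *Pck1* was 0.106, 0.755, 0.0903 and 0.274 in the same order. Both ratios were higher with CORT in each genotype and highest in GRf/f CORT, and none of the intervals within a ratio overlapped.

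The genes whose liver pattern lay nearest to *Pck1* and *G6pc* were found over the 4 liver libraries, among 6014 genes with a mean of at least 10 CPM. The measure was the Euclidean distance between centred log2 levels, where 0 would be the same pattern. Nearest to *Pck1* were *Ngef* (0.12), *Errfi1* (0.14), *Ubap2l* (0.19), *Idi1* (0.27) and *Nsdhl* (0.30). *Errfi1*, which encodes a feedback inhibitor of the EGF receptor, stood at 856, 239, 807 and 612 CPM in GRf/f vehicle, GRf/f CORT, GRmKO vehicle and GRmKO CORT. *Idi1* and *Nsdhl* encode enzymes of cholesterol synthesis. Nearest to *G6pc* were *Atf5* (0.13), *Aldh16a1* (0.22), *Gstm2* (0.22), *Lbp* (0.24) and *Prpf38b* (0.24). *Atf5*, which encodes a transcription factor, stood at 124, 254, 101 and 232 CPM in the same order. Each distance rests on 4 values, which share their libraries and depth.

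The rest of the route was followed in 3 lists of genes. Of 23 genes of the entry and shared steps, all tested in liver, 3 rose and 0 fell with CORT in GRf/f, 0 rose and 1 fell in GRmKO, and the median log2 changes were 0.19 and 0.11. Over all tested genes, 5.9% rose and 5.72% fell in GRf/f and 2.8% and 2.82% in GRmKO, with medians of 0.00 and 0.05, so that 0 and 1 of 23 in GRmKO were near the background. *Gpi1*, glucose phosphate isomerase, rose from 114 to 337 CPM in GRf/f, at 1.57, against 0.81 in GRmKO. *Gpd1*, which joins glycerol to the route, and *Gapdh* rose in GRf/f by 1.10 and 1.03, against 0.76 and 0.71 in GRmKO. These 3 enzymes work in both directions of the route, and each had the larger change in GRf/f. *Pck2*, the mitochondrial form of the *Pck1* enzyme, was scarce, at 1.06, 2.40, 2.29 and 0.810 CPM in the order used above, and fell with CORT in GRmKO, at -1.09. Between genotypes, 0 of the 23 changed under vehicle, where 1.26% of all genes were higher and 1.04% lower in GRmKO. Under CORT 1, *Pck2*, was lower in GRmKO, where 2.27% of all genes were.

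Of 10 genes of hepatic glycolysis and its control, 9 were tested in liver, and 3 rose and 1 fell with CORT in GRf/f, with a median of 0.72, against 1 and 1 in GRmKO, with a median of 0.25. The shares of all genes were again 5.9% and 5.72% in GRf/f and 2.8% and 2.82% in GRmKO, and the medians over all genes 0.00 and 0.05. *Khk*, which encodes the fructose kinase, rose in both genotypes, from 161 to 607 CPM in GRf/f, at 1.92, and from 195 to 439 CPM in GRmKO, at 1.16. *Mlxipl*, which encodes ChREBP, the factor that binds the carbohydrate response element, stood at 49.9, 114, 63.4 and 55.9 CPM. It rose in GRf/f, at 1.18 (1.08 to 1.29), had a change of -0.18 in GRmKO, and was lower in GRmKO than in GRf/f under CORT, at -1.02. *Pdk4*, a kinase that shuts off pyruvate dehydrogenase, rose from 0.956 to 4.93 CPM in GRf/f, at 1.90, against 0.93 in GRmKO. *Pfkfb3*, which makes the allosteric activator of glycolysis, fell in both, at -2.91 in GRf/f and -1.22 in GRmKO, and was higher in GRmKO under CORT, at 1.17. Between genotypes under CORT, 1 of the 9 was higher and 1 lower in GRmKO, where 2.44% and 2.27% of all genes were. Under vehicle 0 of the 9 changed, where 1.26% of all genes were higher and 1.04% lower.

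Of 16 genes listed for the control of gluconeogenic transcription, which include the factors, parts of glucagon and insulin signalling and the responsive genes *Tat* and *Igfbp1*, all were tested in liver, and 0 rose and 8 fell with CORT in GRf/f, whereas 2 rose and 0 fell in GRmKO, with medians of -0.89 and -0.05 beside 0.00 and 0.05 over all genes. All genes gave 5.9% and 5.72% in GRf/f and 2.8% and 2.82% in GRmKO. *Tat* and *Igfbp1*, which encode a metabolic enzyme and a secreted binding protein and not regulators of transcription, were among the 8. Under CORT 3 were higher in GRmKO and 0 lower, with a median of 0.61. Of all genes 2.44% were higher and 2.27% lower there, with a median of 0.07. Under vehicle 0 were higher and 2 lower, with a median of -0.07. Of all genes 1.26% were higher and 1.04% lower there, with a median of 0.03. *Cebpb*, which encodes a factor that binds the *Pck1* promoter, stood at 167, 42.5, 160 and 87.7 CPM, with changes of -1.96 in GRf/f and -0.86 in GRmKO. *Foxo3*, a forkhead factor restrained by insulin, fell by 1.35 on the log2 scale in GRf/f and had -0.46 in GRmKO. *Tat*, the tyrosine aminotransferase gene long used as a target of glucocorticoids in liver, fell in GRf/f, at -1.47, and had -0.85 in GRmKO. *Igfbp1* and *Irs2*, genes known to be repressed by insulin, were the 2 that rose in GRmKO. *Igfbp1* stood at 37.8, 13.9, 18.2 and 45.9 CPM, falling in GRf/f, at -1.41, and rising in GRmKO, at 1.31. *Irs2* stood at 15.2, 9.85, 5.20 and 15.1 CPM, with -0.60 in GRf/f and a rise of 1.45 in GRmKO, where the vehicle library was the low one, at -1.46 against GRf/f vehicle. Under CORT its genotype difference was 0.59, short of 2-fold. *Nr0b2*, which encodes the repressor SHP, stood at 23.2, 10.9, 39.7 and 33.8 CPM and was higher in GRmKO under CORT, at 1.58. The genes that completed the 8, *Crtc2*, *Ppara* and *Sik1*, were named after their values were seen, with -1.09, -1.29 and -1.16 in GRf/f.

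**Figure D3:**
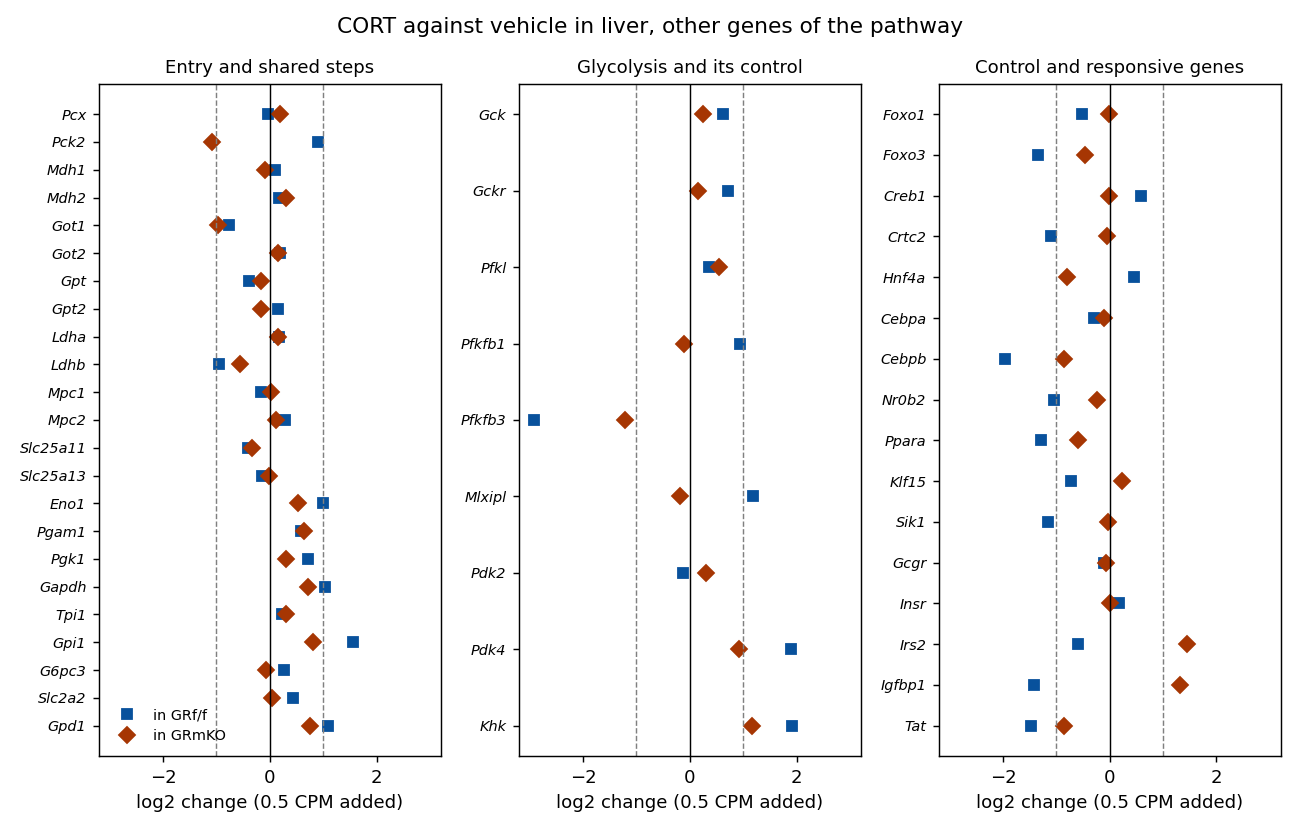
Log2 changes with CORT in liver for the other genes of the pathway, 23 of the entry and shared steps, 9 of glycolysis and 16 of the control of transcription and its responsive genes, squares for GRf/f and diamonds for GRmKO, each from 1 pair of pooled libraries, with dashed lines at 2-fold. Of the 16 genes 8 lie at or below -1 in GRf/f and 0 in GRmKO, while *Igfbp1* and *Irs2* lie above 1 in GRmKO.

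In gonadal WAT *Pck1* stood under vehicle near its liver level and fell with CORT in both genotypes. Its level was 2751 CPM (2728 to 2774) in GRf/f vehicle, 515 (505 to 524.6) in GRf/f CORT, 2988 (2964 to 3012) in GRmKO vehicle and 1109 (1094 to 1123) in GRmKO CORT. Both CORT libraries lay below both vehicle libraries. *Pck1* was 5.35-fold lower with CORT in GRf/f, at -2.42 (-2.45 to -2.39), and 2.69-fold lower in GRmKO, at -1.43 (-1.45 to -1.41). The difference of the responses was 0.99 (0.95 to 1.03), of the same sign as in liver. Under CORT it was 2.15-fold higher in GRmKO, at 1.11 (1.07 to 1.14), and under vehicle the genotypes differed by 0.12 (0.10 to 0.14). Adipocyte markers summed to 59872 and 63961 CPM under vehicle and to 43710 and 49332 CPM under CORT, and leukocyte markers to 733 and 887 against 319 and 402, GRf/f before GRmKO. Their part in the fall of *Pck1* was not tested.

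Among the 7 members tested in gonadal WAT, 0 rose and 1 fell with CORT in GRf/f, where 5.49% and 8.07% of all genes did, and 1 rose and 1 fell in GRmKO, where 3.47% and 5.63% did. Between genotypes 0 differed under vehicle in either direction, where 1.07% were higher and 1.15% lower in GRmKO, and under CORT 3 were higher and 0 lower, where 1.43% and 1.19% were. Apart from *Pck1*, the calls rested on few reads and were lost with 2 CPM added, with a mean of at least 50 counts required and with NOISeq-sim, each of which left 1 member called for CORT in GRmKO and 1 between genotypes under CORT. *Fbp1* had 8.999, 4.48, 6.49 and 29.2 counts in GRf/f vehicle, GRf/f CORT, GRmKO vehicle and GRmKO CORT, and was called higher in GRmKO CORT against both GRmKO vehicle and GRf/f CORT. *Fbp2* had 16.0, 4.00, 18.0 and 23.0 counts and was called higher in GRmKO under CORT. Myofibre markers summed to 48.4, 117, 201 and 104 CPM in those libraries, with 8, 8, 5 and 3 of the 8 above the floor. Their part in the level of *Fbp2* was not tested. *Ppargc1a* stood at 7.01, 3.82, 4.41 and 5.14 CPM, with log2 changes with CORT of -0.80 (-1.30 to -0.47) and 0.20 (-0.20 to 0.65). *Slc37a4*, whose deposited transcript in WAT and gastrocnemius was another one, from 44396852 to 44402960 on chromosome 9, stood at 16.3, 12.0, 10.7 and 12.9 CPM, with changes of -0.43 (-0.69 to -0.20) and 0.26 (0.00081 to 0.54). *G6pc* had 4.00 to 6.00 counts and *Creb3l3* 4.00 to 9.996 counts in a WAT library, and no change of theirs reached 2-fold. *Pklr*, not tested, had 1.26, 0, 0 and 20.3 counts.

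Of 13 genes of glyceroneogenesis and glycerol handling in fat, among them *Pck1* and *Ppargc1a*, 1 rose and 2 fell with CORT in GRf/f WAT and 0 rose and 1 fell in GRmKO, with medians of -0.29 and -0.17. Over all genes 5.49% rose and 8.07% fell in GRf/f and 3.47% and 5.63% in GRmKO, with medians of -0.07 and -0.12. *Gpat3*, which adds the first acyl chain to glycerol 3-phosphate, fell in GRf/f from 150.4 to 52.7 CPM, at -1.50, and went from 114 to 65.8 CPM in GRmKO, at -0.79. *Gk*, the glycerol kinase gene, was scarce and moved the other way in GRf/f, from 3.01 to 7.75 CPM, at 1.23. In GRmKO it went from 4.74 to 3.05 CPM, at -0.56, and it was lower than in GRf/f under CORT, at -1.22. Under CORT *Pck1* was thus the 1 gene of the list that was higher in GRmKO, and *Gk* the 1 that was lower. Of all genes 1.43% were higher and 1.19% lower in that comparison.

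**Figure D4:**
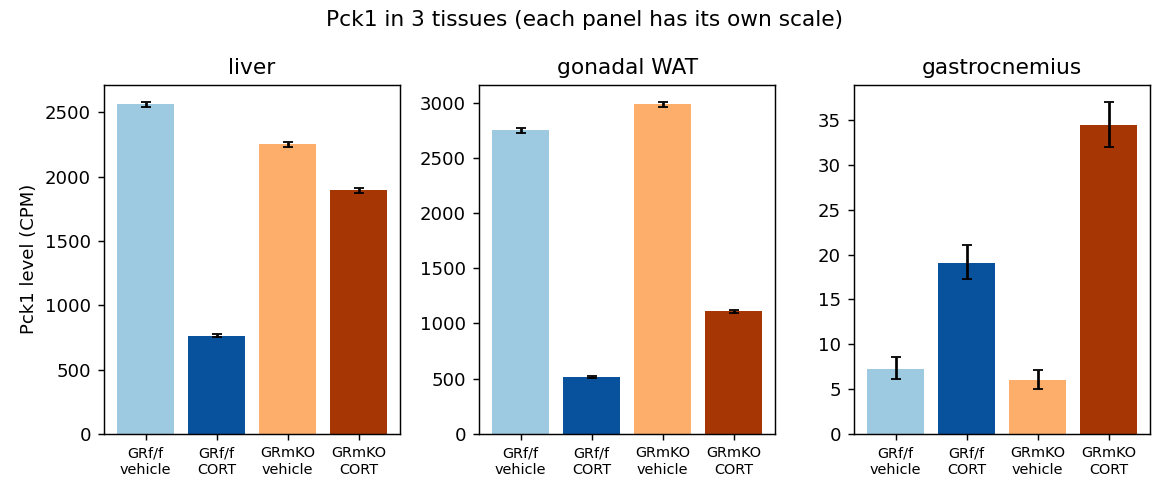
Level of *Pck1* in CPM in liver, gonadal WAT and gastrocnemius, 1 bar per pooled library with the 95% counting interval, each panel on its own axis from 0. In liver GRf/f CORT alone is low at 762 CPM, in WAT both CORT libraries are low at 515 and 1109 CPM, and in gastrocnemius both CORT libraries are high at 19.1 and 34.5 CPM.

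In gastrocnemius, the tissue in which GR was deleted, 4 members were tested. *Pck1* rose in both genotypes, *Slc37a4* was higher in GRmKO under vehicle, and no other change reached 2-fold. With CORT 1 of the 4 rose and 0 fell in GRf/f, where 3.26% and 4.72% of all genes did, and 1 rose and 0 fell in GRmKO, where 1.51% and 5.02% did. Under vehicle 1 was higher and 0 lower in GRmKO, where 4.59% and 3.18% were, and under CORT 0 differed in either direction, where 4.4% were higher and 5.31% lower. *Pck1* stood at 7.24 CPM (6.17 to 8.55) in GRf/f vehicle, 19.1 (17.2 to 21.1) in GRf/f CORT, 5.95 (4.95 to 7.09) in GRmKO vehicle and 34.5 (32.0 to 37.1) in GRmKO CORT. The vehicle libraries overlapped and the CORT libraries lay above them. The rise was 2.63-fold in GRf/f, at 1.34 (1.11 to 1.68), and 5.79-fold in GRmKO, at 2.44 (2.26 to 2.83). *Pck1* was at 0.263%, 3.71%, 0.199% and 3.11% of its WAT level in the 4 groups, in the order used above, and 8 adipocyte markers had medians of 0.545%, 2.80%, 0.547% and 1.82% of theirs. The summed level of these markers, which follows the most abundant of them, went the other way with CORT, at 2956, 2238, 5139 and 4813 CPM. Their part in the rise was not tested.

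*Slc37a4* stood in gastrocnemius at 25.9 CPM (23.7 to 28.2) in GRf/f vehicle, 32.0 (29.5 to 34.6) in GRf/f CORT, 57.97 (54.8 to 61.4) in GRmKO vehicle and 31.6 (29.3 to 34.2) in GRmKO CORT. The GRmKO vehicle library alone was high, at 2.24-fold the GRf/f vehicle level, and the CORT libraries overlapped. That library also had the highest summed leukocyte markers, at 279 CPM against 118, 14.8 and 32.4 in GRf/f vehicle, GRf/f CORT and GRmKO CORT. Its summed myofibre markers were the lowest, at 106897 CPM against 146255 in GRf/f vehicle. Adipocyte markers had their highest sum there, at 5139 CPM, but their median was 0.547% of the WAT level. In the other libraries that median was 0.545%, 2.80% and 1.82%, in the same order. The part of these markers in the level of *Slc37a4* was not tested. *Ppargc1a*, which in muscle governs mitochondrial genes, was more abundant here than in liver, at 64.6 CPM (61.2 to 68.3) in GRf/f vehicle, 40.2 (37.5 to 43.1) in GRf/f CORT, 34.6 (32.1 to 37.3) in GRmKO vehicle and 34.5 (32.1 to 37.2) in GRmKO CORT. The GRf/f vehicle library was the high one, and the GRmKO pair overlapped. Its log2 change with CORT was -0.68 (-0.81 to -0.55) in GRf/f and -0.00 (-0.16 to 0.15) in GRmKO, and the genotype difference was -0.89 (-1.04 to -0.77) under vehicle. *Fbp2*, the muscle isoform, was present at 30.3 CPM (27.9 to 32.8), 52.8 (49.7 to 56.1), 34.1 (31.7 to 36.8) and 54.2 (51.1 to 57.5) in the same order. Its CORT libraries overlapped each other and lay above the vehicle libraries, with log2 changes of 0.79 (0.66 to 0.95) in GRf/f and 0.66 (0.53 to 0.81) in GRmKO, a difference of -0.13 (-0.34 to 0.06).

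The other 4 members were at or under the floor of 3 counts in both GRf/f gastrocnemius libraries and above it in GRmKO CORT. *G6pc* had 0, 0, 2.01 and 21.1 counts in GRf/f vehicle, GRf/f CORT, GRmKO vehicle and GRmKO CORT, and the floor of 3 counts in the GRf/f pair was 0.151 and 0.155 CPM, with the 95% Wilson interval at 0 counts reaching 0.194 and 0.198 CPM. *Fbp1* had 0, 2.003, 15.04 and 74.1 counts, *Pklr*, counted there on another transcript, had 0, 0, 1.13 and 31.2, and *Creb3l3* 0.999, 0, 4.02 and 10.02. All 4 were highest in GRmKO CORT. As a share of the liver level of the same group, GRmKO CORT gastrocnemius held 0.220% of *G6pc*, 0.364% of *Fbp1* and 0.171% of *Creb3l3*. The 10 hepatocyte markers summed to 6.95, 10.1, 90.4 and 293 CPM in the 4 gastrocnemius libraries, and their medians were 0.00646%, 0.00857%, 0.0769% and 0.232% of the liver level. *Apoa2*, a hepatocyte marker, was at 0 in both GRf/f libraries. In gonadal WAT the markers had medians of 0.0345%, 0.0514%, 0.0364% and 0.0822%. There GRmKO CORT held 0.144% of the liver level of *Fbp1*, 0.172% of that of *Creb3l3* and 0.0506% of that of *G6pc*. *G6pc* was highest in WAT in GRmKO vehicle, at 0.165%, and *Creb3l3* was at 0.117% and 0.116% in the GRf/f and GRmKO vehicle libraries. The part of liver RNA in these levels was not tested.

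**Figure D5:**
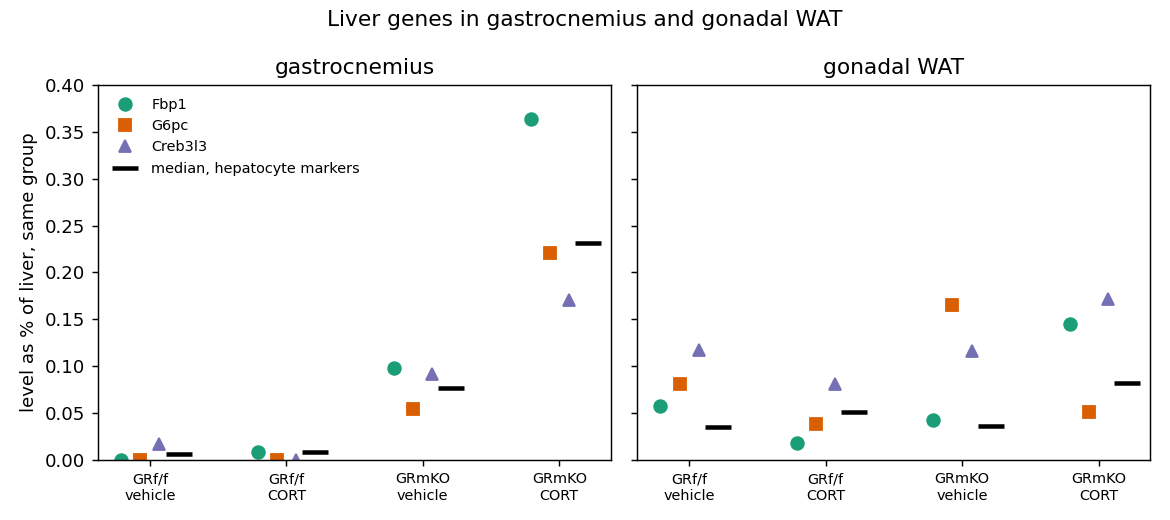
Levels of *Fbp1*, *G6pc* and *Creb3l3* in gastrocnemius and gonadal WAT as a percentage of the liver level in the same group, with a black bar for the median of 10 hepatocyte markers. In gastrocnemius GRmKO CORT the 3 genes lie at 0.171% to 0.364% and the marker median at 0.232%, while in the GRf/f gastrocnemius libraries all lie near 0.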

How the data were processed

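RNA of liver, gonadal WAT and gastrocnemius was sequenced in 12 libraries, each from a pool of 3 mice. The authors quantified paired reads with Salmon 1.2.1 on protein-coding transcripts of GENCODE (GRCm38) and imported them with tximport in R 3.5.0 under its lengthScaledTPM setting, which rebuilds counts from TPM scaled by average transcript length and library size. The deposited values are thus expected counts (estimated counts) that were not scaled between libraries any further, and of entries with the same symbol the one with the largest total was kept. An entry bears 1 transcript identifier, and whether it sums the whole gene was not settled. Transcript positions came from GENCODE annotation of the same build, which held every identifier.

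From the counts, CPM was computed over the library total (19394572 to 20940660), with 95% Wilson intervals, and exact Clopper-Pearson intervals for ratios, on rounded counts. The interval of a ratio omits the added 0.5 CPM, so at low counts it can lie off the log2 change beside it. Python 3.11.15, numpy 2.4.6, pandas 2.3.3, scipy 1.17.1, numba 0.67.0 and matplotlib 3.10.9 were used, and the calculations were tested on simulated data. With 1 library per group no model of replicates could be fitted, and a 2-fold change stands in for a test. NOISeq-sim at a probability of 0.9, other scalings, added values, folds and filters were alternatives.

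Named were all 8 members, *Nr3c1*, up to 6 genes per list with a mean of at least 1 CPM that changed 2-fold in liver (for the fat list, WAT), by size of change, and the 5 nearest patterns to *Pck1* and *G6pc*. The members and lists were chosen with earlier results of these data known. Of the list of entry and shared steps, 1 gene is not reported here.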

Additional observations from a re-analysis of the deposited data

Results flagged for a closer look

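For 3 results the log2 change of a member with CORT had opposite signs in the 2 genotypes, and the counting interval of neither change held 0. The other members with opposite signs, among them *Ppargc1a* (-0.80 and 0.20), *Fbp1* (-0.39 and 1.23) and *Fbp2* (-0.89 and 0.22) in gonadal WAT, had an interval that held 0 in at least 1 genotype. With 1 pooled library per group, the difference was not tested in any of them beyond counting error.

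*Creb3l3* in liver had a log2 change of -0.27 in GRf/f and 0.40 in GRmKO, a difference of 0.68 (0.60 to 0.75).

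*Slc37a4* in gonadal WAT had a log2 change of -0.43 in GRf/f and 0.26 in GRmKO, a difference of 0.69 (0.36 to 1.07), on 212 to 325 counts per library.

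*Slc37a4* in gastrocnemius had a log2 change of 0.30 in GRf/f and -0.86 in GRmKO, a difference of -1.17 (-1.40 to -0.96), and this rests on the high GRmKO vehicle library, at 57.97 CPM.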

How the results depend on the processing

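Each count of members changed at least 2-fold was recomputed under 8 alternatives, 96 values in all, of which 79 stayed within 1.5 times the reported count and none changed direction. TMM and median-of-ratios scaling kept all 12 counts within that range. With a 1.5-fold threshold the count went to 2 for liver GRmKO against GRf/f under CORT, to 3 for WAT CORT in GRf/f, to 1 for WAT genotypes under vehicle, to 3 for gastrocnemius CORT in GRf/f and to 3 in GRmKO, and to 2 under vehicle and 1 under CORT for gastrocnemius genotypes. With 0.1 CPM added, WAT CORT in GRf/f went to 2. With 2 CPM added, a mean of at least 50 counts or NOISeq-sim, WAT CORT in GRmKO went from 2 to 1 and WAT genotypes under CORT from 3 to 1, which left *Pck1* alone. Without a filter on low counts, gastrocnemius CORT in GRmKO went to 4, and genotypes there to 2 under vehicle and 3 under CORT. The genes added were *G6pc*, *Fbp1* and *Pklr*, and between genotypes under vehicle *Fbp1* alone. The main count had left them out for lack of a count above 0 in every gastrocnemius library. The cause of the other shifts was not tested. Of the 72 single-gene changes, TMM left 54 and median-of-ratios 56 within the counting interval. Both turned the sign of *Ppargc1a* in gastrocnemius with CORT in GRmKO, from -0.00 to 0.14 and 0.13, and in liver between genotypes under CORT, from 0.05 to -0.03. Scaling moved the median over tested genes (those averaging 50 counts or more) by over 0.1 for WAT CORT in GRmKO (0.13), gastrocnemius CORT in GRmKO (0.14) and, by median-of-ratios, gastrocnemius CORT in GRf/f (0.11). No paired analysis was possible because each group had 1 pooled library, and leaving out a library leaves nothing to compare. Low counts limit *Fbp1*, *Fbp2*, *G6pc*, *Pklr* and *Creb3l3* outside their main tissues, and *Fbp2* in liver.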
